A study of Mus musculus with 2 samples.

Results

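The cells described here are the cycling leukocytes of the mouse adrenal gland, chosen by their measured values as barcodes in which the 5 proliferation transcripts Mki67, Top2a, Ccna2, Birc5 and Cdk1 together reached at least 3 unique molecular identifiers (UMIs, 1 per captured RNA molecule). Among 6319 barcodes with at least 200 genes and at most 15% mitochondrial UMIs, 92 met this rule, of which 62 were in the female library and 30 in the male library. Both libraries held live CD45+ cells sorted from adrenal glands of untreated 7-week-old C57Bl/6 mice, with 1 library per sex, and the number of mice behind each was not stated. No comparison between the sexes therefore had a biological replicate, cells of 1 library were not replicates, and no test was run. All intervals are 95% intervals that cover counting error only. Intervals and upper limits of a gene level count UMIs and leave out the spread between cells. Because the 5 transcripts chose the cells, the levels of these transcripts and of the genes that move with them are given as a description.

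A dividing cell copies its DNA in S phase, then passes G2 and enters mitosis. S phase genes, which include the Mcm helicase subunits, Pcna and the ribonucleotide reductase subunits, are switched on by E2F transcription factors, whereas genes of G2 and mitosis are held down in resting cells by the DREAM complex, which reaches their promoters through CHR and CHR-like elements. CCAAT boxes, often found beside these, are bound by the activator NF-Y. Tissue macrophages can renew locally by division, and T cells and natural killer (NK) cells divide after activation or under the cytokines that maintain them.

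Promoters of the rule genes Mki67, Top2a and Cdk1, of Mcm5 from the S phase list, and of Pclaf, which encodes a PCNA-binding factor and stood outside the lists, are shown as examples that hold the letters counted below. They were picked with their matches known. Each window runs from 250 bases before to 50 bases after the gene start in the direction of the gene, taken from RefSeq on GRCm38.p6. They lie at chr7:135716330-135716629 for Mki67, chr11:99024140-99024439 for Top2a and chr10:69352863-69353162 for Cdk1, all on the minus strand, and at chr8:75109259-75109558 for Mcm5 and chr9:65890073-65890372 for Pclaf on the plus strand. Capitals mark the letters TTTGAA (CHR), CCAAT, and either TTTCCCGC or TTTGGCGC (E2F), on either strand.
Mki67: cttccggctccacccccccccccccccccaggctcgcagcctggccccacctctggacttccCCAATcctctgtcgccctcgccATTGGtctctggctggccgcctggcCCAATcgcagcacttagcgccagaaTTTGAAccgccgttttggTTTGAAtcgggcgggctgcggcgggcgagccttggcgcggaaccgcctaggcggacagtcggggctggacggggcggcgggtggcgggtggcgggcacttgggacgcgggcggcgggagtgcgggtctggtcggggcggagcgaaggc
Top2a: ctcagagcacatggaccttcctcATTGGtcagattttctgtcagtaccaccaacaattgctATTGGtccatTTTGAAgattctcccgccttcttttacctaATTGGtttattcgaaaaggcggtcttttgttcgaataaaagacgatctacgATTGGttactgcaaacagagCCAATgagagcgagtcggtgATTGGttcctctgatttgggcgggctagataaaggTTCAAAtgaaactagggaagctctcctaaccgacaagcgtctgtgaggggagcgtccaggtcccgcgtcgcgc
Cdk1: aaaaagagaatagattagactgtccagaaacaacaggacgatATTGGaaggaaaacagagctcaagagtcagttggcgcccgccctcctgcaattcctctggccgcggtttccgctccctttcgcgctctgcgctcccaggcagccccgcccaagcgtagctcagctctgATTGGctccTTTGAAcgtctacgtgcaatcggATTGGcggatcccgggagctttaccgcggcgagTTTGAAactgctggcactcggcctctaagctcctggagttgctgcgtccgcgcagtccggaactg
Mcm5: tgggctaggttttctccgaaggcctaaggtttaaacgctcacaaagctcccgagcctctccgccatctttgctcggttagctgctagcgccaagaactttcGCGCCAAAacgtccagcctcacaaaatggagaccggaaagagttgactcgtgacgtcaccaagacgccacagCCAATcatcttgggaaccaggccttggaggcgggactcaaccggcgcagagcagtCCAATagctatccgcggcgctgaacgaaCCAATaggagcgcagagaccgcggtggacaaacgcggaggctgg
Pclaf: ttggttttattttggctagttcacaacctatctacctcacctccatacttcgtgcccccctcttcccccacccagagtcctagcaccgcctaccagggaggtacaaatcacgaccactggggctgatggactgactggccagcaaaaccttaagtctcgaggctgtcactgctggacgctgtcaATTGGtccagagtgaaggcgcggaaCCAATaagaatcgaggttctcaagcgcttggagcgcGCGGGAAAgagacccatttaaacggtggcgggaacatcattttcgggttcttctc
The Mki67 window held TTTGAA at 2 places and CCAAT letters at 3, whereas the Mcm5 and Pclaf windows held 1 E2F match each and no TTTGAA. Other S phase genes lacked the E2F letters, as in the windows of Pcna and Rrm2, which held 1 CCAAT match each and no other.

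The same letters were counted over the lists. Among genes with a window, TTTGAA occurred in 34 of 45 genes of the G2 and mitosis list (75.6%), in 6 of 31 genes of the S phase list (19.4%) and in 20.2% of all 27025 genes. The E2F letters showed the other order, with 8 of 31 S phase genes (25.8%), 2 of 45 G2 and mitosis genes (4.44%) and 1.80% of all genes. CCAAT letters were found in 67.7% of S phase genes, 80.0% of G2 and mitosis genes and 41.1% of all genes. TTTGAA and CCAAT occurred in the same gene for 62.2% of the G2 and mitosis list, 12.9% of the S phase list and 7.97% of all genes. Birc5, whose window held none of these letters, and Ccna2 were the other rule genes. A match describes the letters in this window only.

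The rule genes act at successive steps of division. Cdk1 is the kinase that drives entry into mitosis, Ccna2 encodes the cyclin A2 partner of Cdk2 and Cdk1, Top2a untangles DNA, Mki67 coats mitotic chromosomes, and Birc5 encodes survivin of the chromosomal passenger complex. Top2a was the most abundant in members of both libraries, at 806 CPM (counts per 1000000 UMIs) in the female and 559 CPM in the male library. Birc5 followed at 416 and 328 CPM, Mki67 at 352 and 231 CPM, Cdk1 at 236 and 177 CPM, and Ccna2 at 152 and 148 CPM. Levels of different genes were not set per length, so this order is of captured UMIs. A Top2a UMI was present in 53 of 62 female and 23 of 30 male members, and a Ccna2 UMI in 40 and 20. In other cells the 5 genes together summed to 12.7 and 13.9 CPM, and 4.39% and 4.45% of those cells held at least 1 such UMI. The share in non-cycling B cells, a resting population of lower depth (median 2261.5 and 1789 UMIs), was 1.205% and 1.54%.

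Members varied widely in how strongly they met the rule. The summed rule UMIs per member ran from 3 to 89 in both libraries, with a median of 12 in the female and 7.5 in the male library. All 5 genes were detected in 27 female and 11 male members, and only 1 gene in 6 female members and 0 male members. Those 6 cells each held Top2a alone, with 3 or 4 UMIs. Just outside the threshold, 31 female and 15 male cells held 2 rule UMIs, and just inside it 7 female and 1 male cells held 3. The female cells with 2 rule UMIs had a median of 28.8 S phase UMIs per 10000 and those with 3 had 16.1, so the strip next to the threshold was not ordered by this list. Members held 87.0% of all rule UMIs of the female library and 78.5% of those of the male library.

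**Figure D1:**
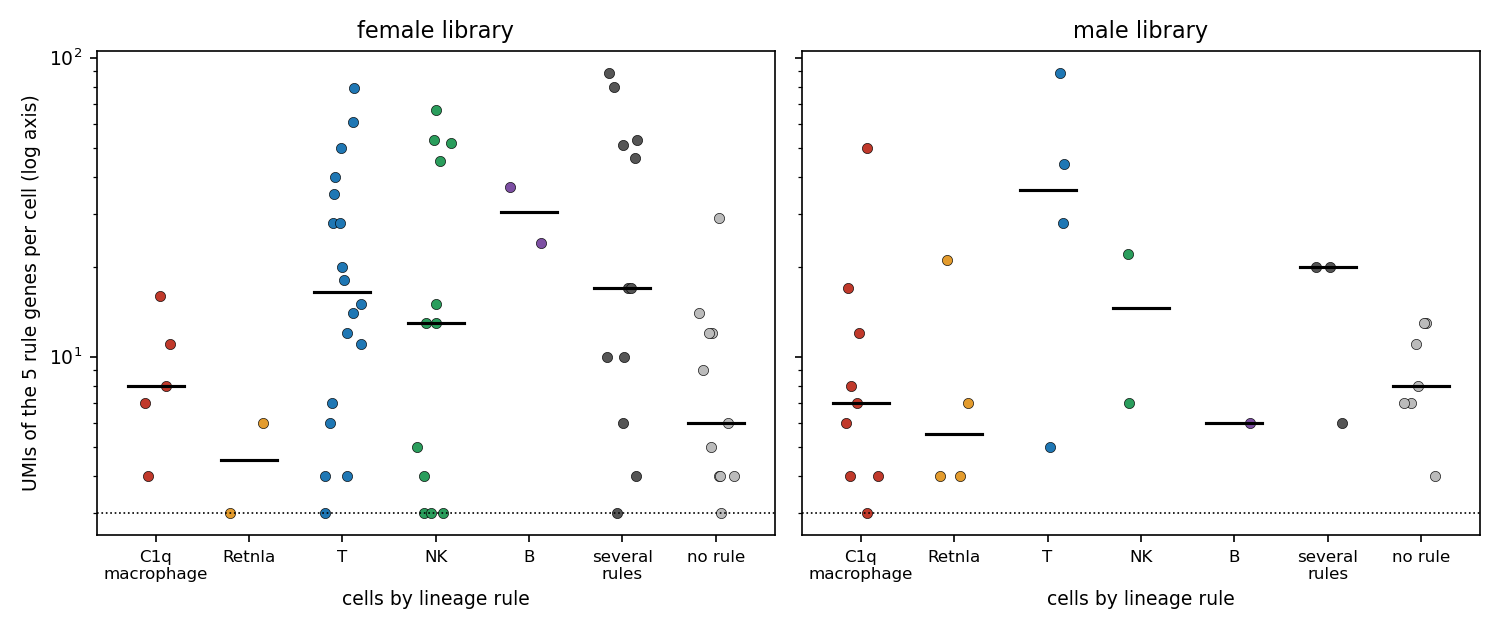
Summed UMIs of the 5 rule genes (log axis) in each cycling cell, by lineage rule and library, with each point a cell, the solid line the median and the dotted line the threshold of 3. The points span 3 to 89 UMIs in both libraries, and the highest lie among T cells and cells that met several lineage rules.

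Lists of S phase and of G2 and mitosis genes that leave out the 5 rule genes showed how far the members carried the wider program. Per 10000 UMIs of a cell, the S phase list took a median of 46.9 UMIs in members of the female library and 59.1 in those of the male library, against 5.85 and 5.79 in other cells. The G2 and mitosis list took 122 and 73.9, against 8.93 and 8.42. The 99th percentile of other cells was 39.2 and 46.3 for the S phase list and 41.9 and 40.2 for the G2 and mitosis list, and 56 of 62 female and 29 of 30 male members lay above it on at least 1 list. S phase UMIs outnumbered those of G2 and mitosis in 18 female and 12 male members. These are positions on a range and not phase calls. Because the lists move with the rule genes, their level in members was fixed in part by the choice of cells.

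**Figure D2:**
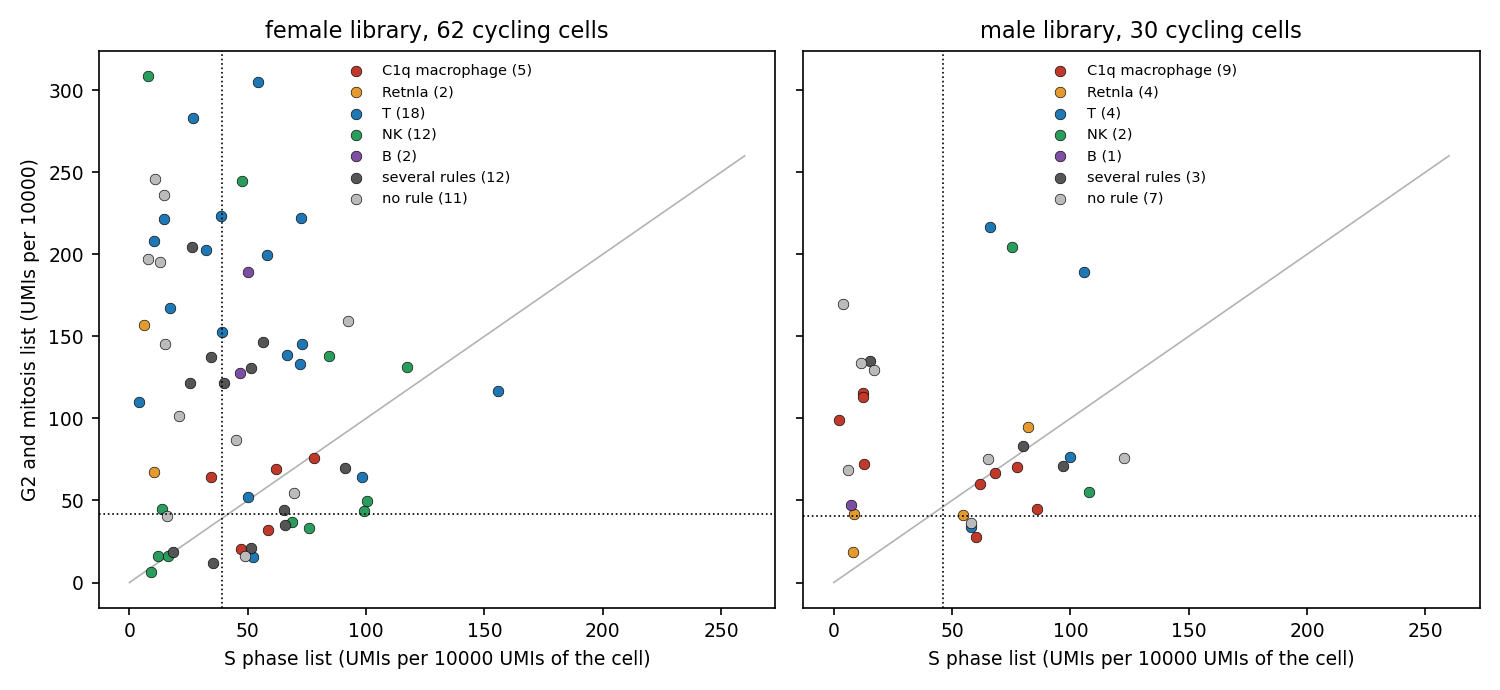
S phase list (x axis) against G2 and mitosis list (y axis), both in UMIs per 10000 of the cell, 1 panel per library, with each point a cycling cell coloured by lineage rule, dotted lines at the 99th percentile of non-cycling cells and a grey line where both lists are equal. All but 6 female cells and 1 male cell lie beyond at least 1 dotted line, and female T and NK cells reach 305 and 309 on the y axis.

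Lineages were told apart by marker UMIs: C1qa, C1qb and C1qc of the complement C1q complex for macrophages, Cd3d, Cd3e and Cd3g of the T cell receptor complex for T cells, the receptors Ncr1 and Klre1 for NK cells, Cd79a and Cd79b of the B cell receptor for B cells, and Retnla for the Retnla-expressing macrophages. In the female library 18 of 620 T cells were cycling, a share of 2.90% (Clopper-Pearson 1.73 to 4.55), followed by 12 of 685 NK cells at 1.75% (0.908 to 3.04). The share was 2 of 127 among Retnla cells, 1.57% (0.191 to 5.57), 5 of 763 among C1q macrophages, 0.655% (0.213 to 1.52), and 2 of 500 among B cells, 0.400%. In the male library Retnla cells stood first with 4 of 198, 2.02% (0.553 to 5.09), then C1q macrophages with 9 of 737, 1.22% (0.560 to 2.31), and T cells with 4 of 337, 1.19% (0.324 to 3.01). NK cells followed with 2 of 284, 0.704% (0.0854 to 2.52), and B cells with 1 of 260, 0.385%.

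**Figure D3:**
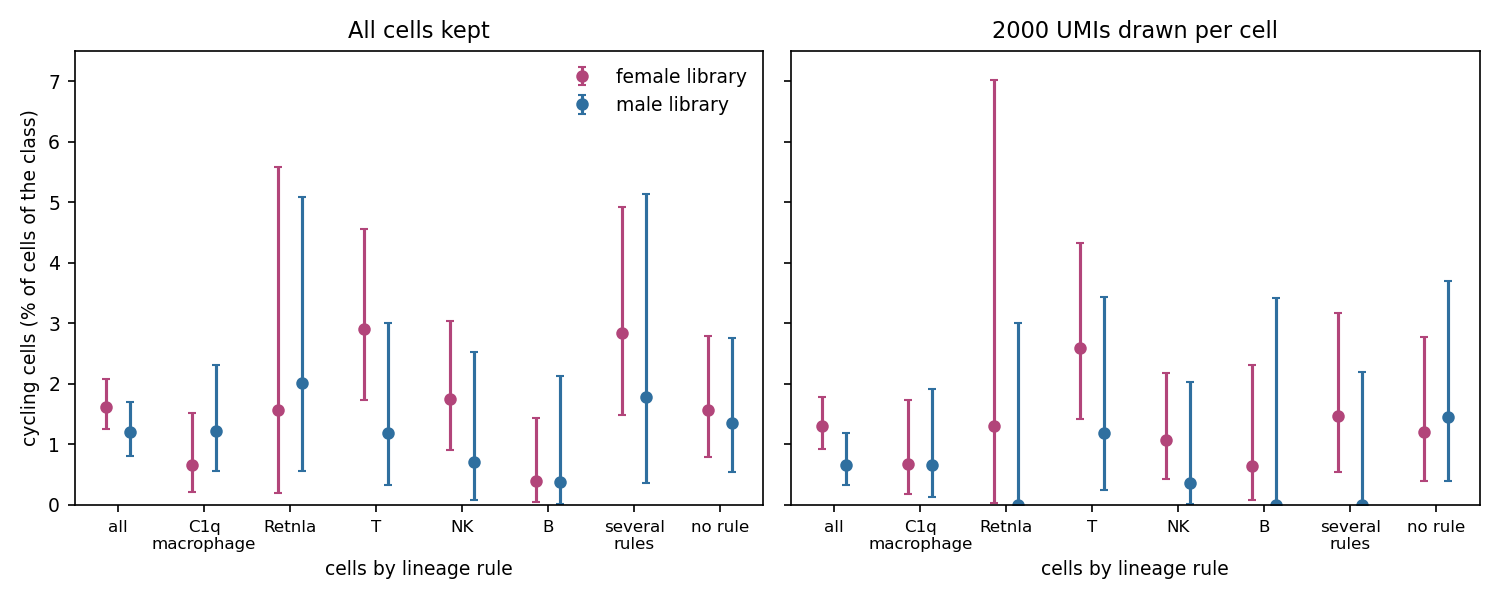
Percent of cells that were cycling, by lineage rule, in the female and male libraries, for all cells kept (left) and after 2000 UMIs were drawn per cell (right), with Clopper-Pearson 95% intervals as bars. The female T cell share is the highest point in both panels, at 2.90% and 2.60%, and the female and male intervals of each lineage overlap.

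Within the female library the C1q macrophage share lay 2.25 percentage points below that of T cells (Newcombe interval of macrophage minus T -3.93 to -0.878), and T and NK cells lay above B cells by 2.50 (1.01 to 4.17) and 1.35 points (0.0661 to 2.67). In the male library the interval of every pair of these 5 lineages included 0. Between the libraries the share over all cells was 1.62% (1.25 to 2.08) in the female and 1.199% (0.810 to 1.71) in the male, a difference of 0.425 points (-0.194 to 1.002). The female minus male difference was 1.72 points (-0.393 to 3.51) in T cells, 1.05 (-0.926 to 2.43) in NK cells, -0.566 (-1.71 to 0.478) in C1q macrophages and -0.445 (-3.71 to 3.73) in Retnla cells, and each of these intervals included 0. With a threshold of 2 rule UMIs in place of 3, the T cell difference was 2.55 points with an interval of 0.219 to 4.59, which no longer included 0.

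Depth moved with these shares, since members held a median of 10342.5 UMIs in the female and 9515.5 in the male library, against 3510 and 2972 in other cells. When each cell was thinned to 2000 UMIs, leaving 2997 female and 1648 male cells, 39 and 11 were cycling, or 1.30% and 0.667%, a difference of 0.634 points whose interval, for counting error between 2 single libraries, was 0.00500 to 1.19. B cells, the lineage of lowest depth given above, kept 2 of 311 female cells, 0.643% (0.0780 to 2.30), and 0 of 106 male cells, which allows up to 3.42%. In the female library NK cells then lay 0.422 points above B cells (-1.34 to 1.63) and T cells 1.95 points above them (-0.0160 to 3.73), and both intervals, unlike those without thinning, included 0. T cells lay 1.53 points above NK cells with an interval of 0.00280 to 3.33, whereas without thinning the difference was 1.15 points (-0.514 to 2.95). Each cell was drawn once, and these intervals leave out the spread between draws. Lower limits of 0.00280 and 0.00500 therefore do not settle whether the interval includes 0. C1q macrophages stayed below T cells by an interval without 0 (-3.68 to -0.430). The T cell shares were then 2.60% and 1.19%, the NK shares 1.07% and 0.366%, and the C1q macrophage shares 0.681% and 0.659%. No male Retnla cell remained above the threshold, which allows a share of up to 3.00%. A larger RNA content of dividing cells and a rule that is met more easily at depth cannot be told apart here.

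Named by rule, the 5 female and 9 male cycling C1q macrophages held UMIs of macrophage receptor genes, with none of Csf1r, Mrc1, Adgre1, Cx3cr1, Fcgr1 and Mertk 2-fold different in the same direction in both libraries, and had higher levels of genes of division. Csf1r, the receptor for the macrophage growth factor M-CSF, had UMIs in all 5 and all 9, at 931 and 868 CPM, which was 1.09 (0.731 to 1.55) and 0.967 (0.737 to 1.25) times the level of non-cycling C1q macrophages. Mrc1, the mannose receptor, stood at 1.10 (0.523 to 2.02) and 1.21 (0.815 to 1.75) times, and 18 of the 30 male UMIs came from 1 cell, without which the male value was 0.559 (0.288 to 0.982). Adgre1, which encodes the surface marker F4/80, was at 0.737 (0.353 to 1.36) and 0.237 (0.0867 to 0.517) times, and Cx3cr1, the fractalkine receptor, at 1.40 (0.981 to 1.93) and 0.514 (0.348 to 0.732) times, the latter 0.308 (0.163 to 0.527) without 1 cell with 18 of 31 UMIs. Fcgr1, which encodes CD64, was at 0.464 (0.0954 to 1.36) and 0.519 (0.223 to 1.03) times. Mertk, a receptor for the uptake of dying cells, had 0 UMIs in the female cells, which allows up to 1.02 times the non-cycling level, and 4 UMIs in the male cells, at 0.628 (0.170 to 1.63) times. Stmn1, which encodes the microtubule destabiliser stathmin, held 10, 17, 9, 5 and 5 UMIs in the 5 female cells and 3 to 47 in the 9 male cells. Its level was 41.8 (28.9 to 59.8) and 35.0 (26.5 to 46.3) times that of non-cycling cells. Hmgb2, a chromatin protein, was 13.9 (10.7 to 17.9) and 12.1 (9.88 to 14.7) times higher.

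A gene was counted as higher or lower in cycling cells when its level differed at least 2-fold in the same direction in both libraries on the log2(CPM + 50) scale, among genes with at least 20 UMIs in the lineage in each library. That minimum counted UMIs of cycling cells too, so some genes were tested only through the cells in which they are high. Of 8309 genes tested in C1q macrophages, 0.879% were higher and 0.53% lower. With 10 CPM added in place of 50, 230 were higher and 869 lower, against 73 and 44, so the balance depended on this choice. Of the lists, 11 of 26 S phase genes, 7 of 13 G2 and mitosis genes and 13 of 18 chromatin, tubulin and growth genes were higher and none was lower. On non-cycling UMIs alone, 25 of the 26 and 12 of the 13 reached the minimum. The median log2 ratio of the S phase list was 1.198 in the female and 1.32 in the male library, and that over all genes tested was -0.20 and -0.05. The choice of cells by a cell cycle rule fixed this direction. Among 17 macrophage identity genes, 3 were lower and none higher. Apoe, the lipid carrier, was at 0.270 (0.239 to 0.303) and 0.316 (0.288 to 0.346) times the non-cycling level, and Ms4a7, a tetraspan membrane protein of macrophages, at 0.0900 (0.0185 to 0.263) and 0.120 (0.0519 to 0.237) times. Trem2, a lipid-sensing receptor, counted 3 UMIs in each library, at 0.266 (0.0547 to 0.779) and 0.182 (0.0374 to 0.534) times.

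Transcripts of antigen presentation by MHC class II differed among the cycling C1q macrophages. Their share per 10000 UMIs ran from 32.5 to 468 in the 5 female cells, with a median of 167 against 352 in non-cycling cells, and 3 of 5 lay below that median. In the 9 male cells it ran from 69.2 to 527, with a median of 319 against 491, and 7 of 9 lay below. The ranges overlapped with those of non-cycling cells in both libraries, and none of the 10 MHC class II genes tested passed the 2-fold rule. Ccr2, the chemokine receptor that brings monocytes out of the bone marrow, had UMIs in 2 of 5 female and 6 of 9 male cycling cells, against 26.6% and 19.4% of non-cycling cells, and its level was 0.921 (0.369 to 1.91) and 1.86 (1.25 to 2.69) times theirs. At 2000 UMIs per cell Ccr2 was found in 1 of 5 and 5 of 9 cycling cells, against 21.6% and 19.1%. Of 30 male Ccr2 UMIs, 15 came from 1 cell, and of 7 female ones 5, without which the ratios were 1.07 (0.597 to 1.78) in the male and 0.306 (0.0370 to 1.11) in the female library. Timd4, a phosphatidylserine receptor of long-lived resident macrophages, had no UMI in any cycling C1q macrophage, which for 5 and 9 cells allows shares of up to 52.2% and 33.6%, and 3.56% and 4.12% of non-cycling cells held one.

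One of the 9 male C1q macrophages also held 10 UMIs of Kdr, 9 of Cdh5 and 6 of Plpp3, which mark endothelial cells, with 5 UMIs of C1qa, 3 of C1qc and 1 of Ptprc, which encodes CD45. Without cells that held at least 3 of the 6 endothelial markers, the female minus male difference in C1q macrophages was -0.444 points. The number of genes past the 2-fold rule was then 73 higher and 46 lower in C1q macrophages, against 73 and 44 with them.

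Retnla encodes a secreted effector of alternatively activated macrophages. All 4 male cycling Retnla cells lay among the 84 Retnla cells below the C1q threshold, a share of 4.76% (1.31 to 11.7), and 0 among the 114 that also met it, which allows up to 3.18%. In the female library 1 of 63 and 1 of 64 were cycling. C1qa is a gene of the C1q threshold that the 4 male cells lay below, so their level of it, 64.4 CPM against 2398 CPM in non-cycling Retnla cells, restates that threshold. In the 2 female cells it was at 1559 against 1843 CPM, or 0.846 times, and 9 of the 11 UMIs came from 1 cell, without which the ratio was 0.2803 (0.0339 to 1.02). Ccr2 was detected in 2 of 2 and 4 of 4 cells, at 1843 and 1546 CPM against 1167 and 1168 CPM in non-cycling cells, and Fn1, which encodes fibronectin, in 2 of 2 and 4 of 4 at 3828 and 3435 CPM against 3127 and 3704 CPM.

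Lyz1, which encodes lysozyme, had a lower summed level in the cycling cells of both libraries. It had 0 UMIs in the 2 female cells, which allows up to 0.185 times the level of non-cycling cells when UMIs are counted. In the 4 male cells it had 13 UMIs, at 0.0786 (0.0418 to 0.135) times that level, and 10 of them came from 1 cell. A Lyz1 UMI was present in 0 of 2 and 3 of 4 cycling cells, against 52.0% and 49.0% of non-cycling cells. The share of cells with Lyz1 was thus not lower in the male library, and 2 female cells do not set one. Of 3101 genes tested in Retnla cells, 0.838% were higher and 5.22% lower, and 4 of 5 G2 and mitosis genes were higher. Only 4 of these 5 reached the UMI minimum on non-cycling UMIs alone. All 8 genes tested of the list for Lyve1-high macrophages were counted as lower by the 2-fold rule. Lyve1, a hyaluronan receptor, had 0 UMIs in both libraries, which in the male cells allows up to 0.228 times the 349.9 CPM of non-cycling cells. Folr2, folate receptor beta, likewise had 0 UMIs, which allows up to 0.0888 times in the male cells. In the female cells the limits were 2.09 times for Lyve1 and 1.08 times for Folr2, so a lower level of either was not detectable at this depth. Their call as lower in that library rested on the added 50 CPM. The 4 male cycling cells and 1 of the 2 female ones met the Retnla rule without the C1q rule. The non-cycling cells included both kinds. The 2 female cells held only 7054 UMIs in all, so that 3 UMIs already equal 425 CPM.

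T cells gave 18 female and 4 male members, the largest lineage among female members, whereas C1q macrophages were the largest among male ones. All 22 cycling T cells held UMIs of Trac, the constant segment of the T cell receptor alpha chain. Their rule UMIs had a median of 16.5 in the female and 36 in the male library. The G2 and mitosis list reached a median of 160 and 133 per 10000, against 11.8 and 11.001 in non-cycling T cells, and the S phase list 51.2 and 82.9 against 6.41 and 6.82. Every one of the 22 lay above the 99th percentile of non-cycling T cells on at least 1 list. Of 6299 genes tested, 1.89% were higher in cycling T cells and 0.699% lower. On the lists, 20 of 27 S phase genes, 13 of 18 G2 and mitosis genes, 5 of 7 replication histones and 14 of 18 chromatin, tubulin and growth genes were higher and none was lower. On non-cycling UMIs alone, 19 of the 27, 13 of the 18 G2 and mitosis genes and 5 of the 7 reached the 20-UMI minimum. The others were tested only through the cycling cells. Reads of histone and tubulin genes can be split among near-identical copies, so single members of these families are uncertain.

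Stmn1 in T cells stood at 1513 CPM in female and 1218 CPM in male cycling cells, 41.3 (32.4 to 52.9) and 50.5 (32.8 to 79.6) times the non-cycling level. Hmgb2 reached 7224 and 5785 CPM, 13.2 (12.3 to 14.3) and 12.9 (11.3 to 14.7) times. Rbl1, which encodes the pocket protein p107, was the member of the G1 cyclin and E2F list that passed, at 4.35 (2.52 to 7.23) and 5.83 (2.28 to 13.3) times. Cdkn2c, an inhibitor of the kinases Cdk4 and Cdk6, was higher as well, at 8.56 (4.88 to 14.7) and 12.6 (4.48 to 33.6) times. In the male library Cdkn2c reached the 20-UMI minimum only with the 8 UMIs of cycling cells, so its ratio is given as a description. Gapdh, a glycolytic enzyme, was higher at 2.35 (2.02 to 2.73) and 3.84 (3.19 to 4.59) times. Icos, a costimulatory receptor of activated T cells, stood at 3.81 (2.81 to 5.11) and 3.13 (1.72 to 5.34) times, with UMIs in 13 of 18 and 3 of 4 cells, and 23 of the 60 female UMIs came from 1 cell. In the male library 13 of 16 Icos UMIs came from 1 cell, without which the ratio was 0.875 (0.177 to 2.64), on the other side of 1. Without the cell that held most UMIs of the gene, the male ratio of Cdkn2c was 4.72 (0.513 to 21.2), that of Rbl1 3.27 (0.633 to 10.7) and that of Stmn1 28.0 (16.9 to 46.8).

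Of 18 T cell subset genes tested 4 were lower and Icos alone was higher, and of 12 growth factor and cytokine receptors 2 were lower. Il7r, the receptor for the survival cytokine IL-7, was at 132 and 60.9 CPM in cycling cells and 678 and 396 CPM in non-cycling cells, 0.195 (0.126 to 0.289) and 0.154 (0.0417 to 0.396) times. Bcl2, which protects from apoptosis, was at 0.170 (0.0928 to 0.287) and 0.131 (0.0355 to 0.336) times. Btg1, an antiproliferative factor, was at 0.198 (0.132 to 0.285) and 0.101 (0.0327 to 0.236) times, and Txnip, which restrains glucose uptake, at 0.130 (0.0670 to 0.228) and 0.161 (0.0436 to 0.414) times. Lef1, a transcription factor of naive T cells, was at 0.242 (0.140 to 0.390) and 0.257 (0.0939 to 0.564) times. Ccr7, a lymph node homing receptor, had 5 UMIs in the female cells and 0 in the male cells, the latter allowing up to 0.469 times the non-cycling level. Only 23.7% of male non-cycling T cells held a Ccr7 UMI, and 0 of 4 cycling cells allows a share of up to 60.2%. The male count therefore does not set a difference. Of 10 cytotoxic effector genes tested 3 were lower, among them the chemokine Ccl5 at 0.256 (0.215 to 0.302) and 0.424 (0.343 to 0.517) times. The granzyme genes Gzma and Gzmb, also counted as lower, had 0 UMIs in the male cells. This allows up to 0.9298 times the non-cycling level for Gzma and 0.517 times for Gzmb. Their male counts alone therefore do not set a 2-fold difference.

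Among the 18 female cycling T cells, 4 held UMIs of Cd8a or Cd8b1 without Cd4, 3 held Cd4 without either, and 11 (61.1%) held none of these co-receptor transcripts. In non-cycling female T cells the shares were 33.2%, 11.8% and 54.5%. Of the 4 male cycling T cells 1 held Cd4 alone and 3 held none. Cd8b1 was at 0.488 (0.346 to 0.669) times the non-cycling level in the female library. The male cells held 0 Cd8b1 UMIs, which allows up to 0.1595 times when UMIs are counted. Only 29.1% of male non-cycling T cells held one, and 0 of 4 cells allows a share of up to 60.2%. The male count therefore does not set a difference. No cycling T cell held both co-receptors, which for 18 and 4 cells allows up to 18.5% and 60.2%.

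NK cells had 12 female and 2 male members, and all 14 held UMIs of Klrb1c, the receptor NK1.1. Their rule UMIs had a median of 13 and 14.5, and 4 of the female cells held 45 to 67. The S phase list had a median of 58.2 per 10000 in the female cells and the G2 and mitosis list one of 44.1, against 8.46 and 11.9 in non-cycling NK cells. In the 2 male cells the lists stood at 75.5 and 108 for S phase and 204 and 55.0 for G2 and mitosis. The 3 female NK cells with 3 rule UMIs each were low on both lists, at 9.31, 12.2 and 16.1 for S phase and 6.52, 16.3 and 16.1 for G2 and mitosis, within the range of non-cycling NK cells. Of 7010 genes tested, 0.942% were higher and 0.514% lower in cycling NK cells, and the median log2 ratio of all genes was -0.10 in the female and -0.36 in the male library. On the lists, 19 of 25 S phase genes, 7 of 15 G2 and mitosis genes and 10 of 18 chromatin, tubulin and growth genes were higher and none was lower. The UMI minimum was reached on non-cycling UMIs alone by 22 of the 25, 13 of the 15 and all 18. The others were tested only through the cycling cells, so these counts are given as a description.

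Of 11 cytotoxic effector genes tested in NK cells 2 were lower, Gzmb and Prf1, and none was higher. Gzmb, the protease granzyme B, was at 294 and 355 CPM against 961 and 766 CPM, or 0.306 (0.219 to 0.417) and 0.463 (0.186 to 0.957) times. Prf1, the pore-forming perforin, was at 0.384 (0.2501 to 0.565) times in the female library, and in the male library 1 UMI gave 0.0909 (0.00230 to 0.508) times. Bcl2 was at 0.320 (0.214 to 0.461) and 0.256 (0.0527 to 0.750) times, and Ccnd2, which encodes the G1 cyclin D2, at 0.296 (0.189 to 0.442) and 0.275 (0.0747 to 0.706) times. Klf2, a transcription factor of quiescence and recirculation, was at 0.395 (0.255 to 0.586) times in the female cells and had 0 UMIs in the male cells, which allows up to 0.565 times, so that the male count alone does not set a 2-fold difference. Of 22 NK and innate lymphoid subset genes tested, 4 were lower, among them Gzmb and Prf1 counted above, and none higher. Another of the 4, the integrin gene Itga2, had 0 UMIs in the 2 male cells. This allows up to 1.49 times the non-cycling level, so its male count alone does not set a 2-fold difference. Eomes, a transcription factor that separates conventional NK cells from group 1 innate lymphoid cells, was at 1.07 (0.664 to 1.64) and 0.695 (0.0837 to 2.54) times. All male UMIs of Gzmb, Prf1, Bcl2, Ccnd2 and Eomes came from 1 of the 2 cells for each gene, so the male value of these genes is that of a single cell. In the female library 18 of the 26 Prf1 UMIs came from 1 cell, without which its ratio was 0.127 (0.0546 to 0.2504).

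**Figure D4:**
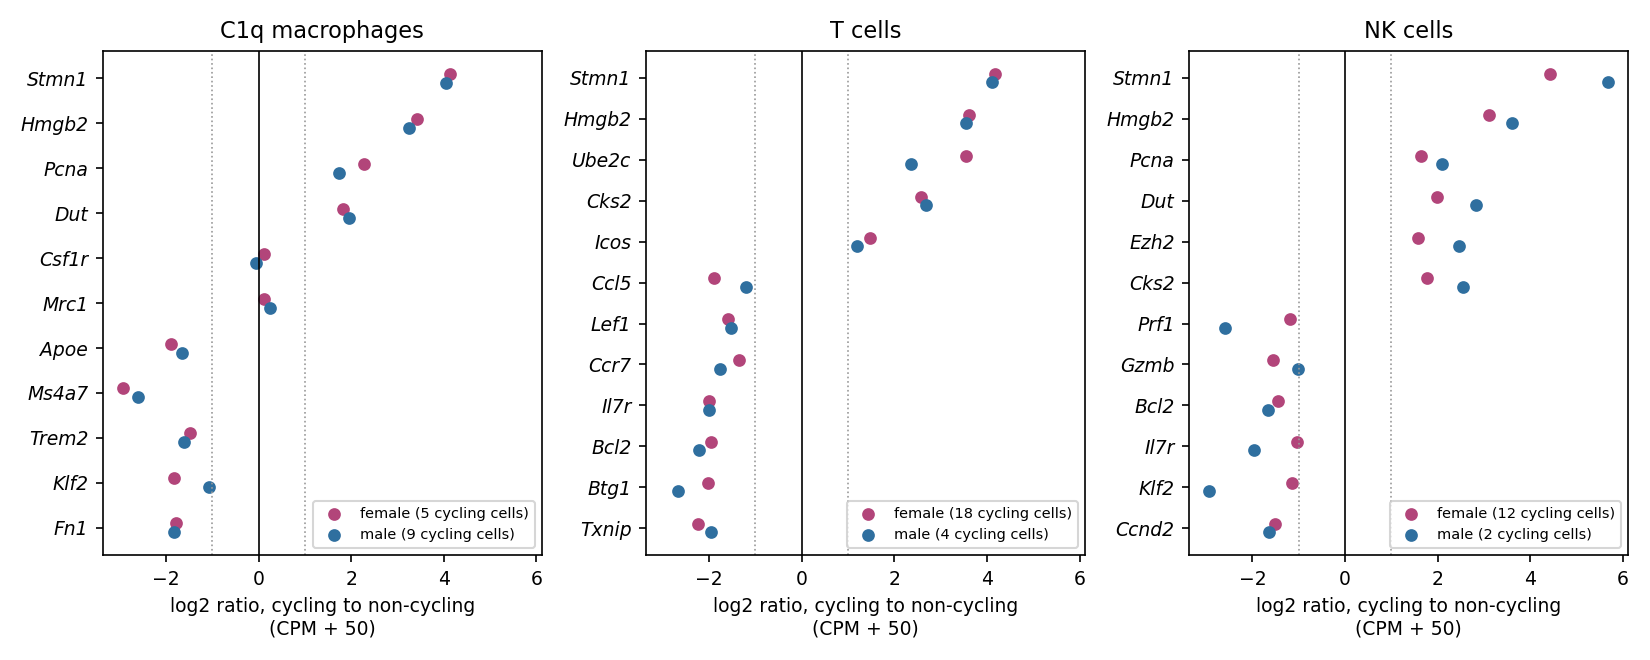
Log2 ratios on the CPM + 50 scale (x axis) of cycling to non-cycling cells for named genes in C1q macrophages, T cells and NK cells, with 1 point per library and dotted lines at a 2-fold difference. Stmn1 and Hmgb2 lie far to the right in all 3 panels, Csf1r and Mrc1 lie near 0, and the genes drawn left of the dotted line, such as Ms4a7, Btg1 and Prf1, were lower in both libraries. Genes with 0 UMIs in the cycling cells of a library, such as Fn1 in both libraries of C1q macrophages, have a ratio that depends on the added 50 CPM.

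Only 3 B cells were cycling. The female cell with 37 rule UMIs held 926 UMIs of Igha, which encodes the heavy chain of immunoglobulin A, 172 of Jchain, which joins its polymers, and 59 of Mzb1, a chaperone of antibody secretion. The male cell held 815, 361 and 101 UMIs of the same genes. Both thus carried transcripts of antibody-secreting cells. The other female cell held 16 UMIs of Ighm and 1 of Ms4a1, which encodes CD20. No list was counted for so few cells.

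Cells that met several lineage rules gave 12 female and 3 male members, or 19.4% and 10.0% of members, against 10.9% and 6.67% of other cells. In the female library 3 met the macrophage and T rules, 2 the T and NK rules and 2 the T, NK and B rules, and 3 of the 12 summed to 80, 89 and 53 rule UMIs. A high doublet score was given to 1 of 62 female and 0 of 30 male members (up to 11.6%), against 3.25% and 2.10% of other cells. The part of doublets among cells of several rules was not tested, and these 15 cells entered no gene comparison.

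No lineage rule was met by 11 female and 7 male members. Of the 11 female cells, 4 held at least 3 of 6 endothelial markers and no Ptprc UMI, and 1 of these had 48 UMIs of Cyp11a1 and 99 of Hsd3b1, which encode enzymes of steroid synthesis. At least 3 monocyte markers were held by 1 female and 2 male cells, and 1 of the male cells also held 4 dendritic cell markers. At least 3 dendritic cell markers were held by 1 female and 1 male cell, the male one with 11 UMIs of Xcr1, the chemokine receptor of cross-presenting dendritic cells. Cd209a, a lectin of dendritic cells and monocytes, had UMIs in 4 of the female cells (1, 3, 8 and 13) and 4 of the male cells (9, 5, 6 and 1). A further 1 male cell held 3 markers of group 2 innate lymphoid cells, and 5 female and 4 male cells stayed unnamed. Over all members Ptprc was detected in 80.6% and 93.3%, against 83.8% and 76.1% of other cells. Without cells of at least 3 endothelial markers the cycling share was 1.54% and 1.19%.

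No lineage had 10 cycling cells in both libraries, so a gene ranking was made once over all 59 members of a single lineage, 39 female and 20 male, against non-cycling cells weighted to the same lineage makeup in UMIs. Of 10663 genes tested, 127 were higher (1.19%) and 21 lower (0.197%). The leading genes higher in cycling cells were Stmn1 with log2 ratios of 4.28 and 4.13, Pclaf, a PCNA-binding factor, with 3.94 and 4.16, and Hmgb2 with 3.47 and 3.44. Linker histone Hist1h1b stood at 3.12 and 3.01, Rrm2 of ribonucleotide reductase at 2.82 and 2.65, Ube2c, an enzyme that marks mitotic proteins for destruction, at 3.16 and 2.18, Cks2, a Cdk-binding subunit, at 2.24 and 2.26, and lamin B1, from Lmnb1, at 2.16 and 2.20. Stmn1 had UMIs in 38 of 39 and 20 of 20 members. Igha, at 5.58 and 2.44, had UMIs in 1 female and 2 male cells. Of the male cells, a B cell held 815 Igha UMIs and a C1q macrophage held 1. The value of each library thus rested on 1 cell.

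By function, 31 of 37 G2 and mitosis genes, 26 of 39 S phase genes, 7 of 13 replication histones and 14 of 18 chromatin, tubulin and growth genes were higher and none lower. On non-cycling UMIs alone, only 22 of the 37, 33 of the 39 and 11 of the 13 reached the 20-UMI minimum. The others were tested only through the cycling cells, so these counts are given as a description. Of the genes higher in both libraries, 82 of 127 (64.6%) were on these lists or were rule genes, and 5 were rule genes. This share follows in part from the choice of cells and from the UMI minimum, and describes the count only. Outside them stood Spc24, a kinetochore subunit, with log2 ratios of 2.36 and 2.12, Ezh2, the methyltransferase of the Polycomb complex PRC2, with 1.98 and 1.96, Asf1b, a histone chaperone, with 1.87 and 1.71, Smc2 of condensin with 2.03 and 1.62, and Esco2, which acetylates cohesin, with 1.58 and 1.56. Of 21 nucleotide synthesis genes, 20 of which reached the minimum on non-cycling UMIs alone, 5 were higher, and Gapdh alone of 16 glycolysis genes. None of 15 G1 cyclin, kinase and E2F genes, 16 cholesterol synthesis genes, 11 genes of the p53 response or 13 immediate early genes passed the 2-fold rule in either direction.

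The genes lowest in cycling cells were Ighm, the immunoglobulin M heavy chain, with log2 ratios of -1.99 and -2.36, Apoe with -1.79 and -1.85, Bcl2 with -1.65 and -1.54, the light chain gene Iglc2 with -1.52 and -2.24, and Ms4a7 with -1.30 and -2.15. The immunoglobulin values rest on B cells, of which 2 female and 1 male were cycling. Ighm was at 762 CPM in the female cycling B cells, all from 1 cell, and 0 in the male one, against 10712 and 5936 CPM in non-cycling B cells, whereas in C1q macrophages it stood at 217 and 256 CPM against 266 and 265 CPM. On the list of Cdk inhibitors and quiescence genes, Btg1, at -1.40 and -1.23, and Txnip, at -1.73 and -1.06, were 2 of 18 and none was higher. Of 22 growth factor and cytokine receptors, Il7r with -1.72 and -1.24 and Ifngr1, the interferon gamma receptor chain, with -1.05 and -1.30 were lower. In T cells, which do not make Apoe in quantity, it stood at 79.3 and 60.9 CPM in cycling and 222 and 209.7 CPM in non-cycling cells. Cycling cells were also the deeper ones, as given above, and the part of depth and of free RNA in these values was not tested.

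The same rule chose the cycling cells of each lineage, so shared genes of division follow in part from that choice. The male NK values came from 2 cells. Higher levels in C1q macrophages, T cells and NK cells alike were found for 26 genes, of 5645 tested in all 3 lineages. They made up 35.6% of the genes higher in C1q macrophages, 21.8% of those in T cells and 39.4% of those in NK cells, and 18 were on the cell cycle lists. They included Pcna, the sliding clamp of DNA polymerase, the helicase subunit Mcm5, Gmnn, which encodes the licensing inhibitor geminin, Ezh2, Smc2, Stmn1, Hmgb2, Tuba1b and Tubb5. No gene was lower in all 3. Of the genes tested in each lineage, only 0.53% in C1q macrophages, 0.699% in T cells and 0.514% in NK cells were lower. Shares this small leave little room for overlap, so the absence describes the count only. Stmn1 had log2 ratios of 4.13 and 4.05 in C1q macrophages, 4.17 and 4.10 in T cells and 4.43 and 5.69 in NK cells.

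As for depth, the female library held 3817 barcodes that passed the filters with 16049803 UMIs and a median of 3539 per cell, and the male library 2502 with 9321581 and a median of 3021.5. The libraries shared 2 barcode sequences. The total UMIs behind the cycling cells were 32239 and 70278 in C1q macrophages, 189086 and 65691 in T cells and 139244 and 19746 in NK cells, which sets the width of the intervals above.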

How the data were processed

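Live CD45+ adrenal cells had been profiled with 10x Genomics 3' chemistry. Per the labels, the authors used Cell Ranger 4.0.0, DropletUtils 1.4.3 and Seurat 3.1.0, aligned to mm10, and deposited raw UMI counts per gene and barcode, which were used as deposited; the study's methods describe doublet removal in its own analysis, and the count tables do not mark those cells. The members, lineage rules and gene lists were chosen with earlier results of these data known.

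Here barcodes with at least 200 genes and at most 15% mitochondrial UMIs were kept. Lineages needed at least 5 C1qa, C1qb and C1qc UMIs, 2 Cd3d, Cd3e and Cd3g UMIs, 2 Ncr1 and Klre1 UMIs, 3 Cd79a and Cd79b UMIs, or 5 Retnla UMIs, and cells that met both the C1q and Retnla rules were counted as Retnla cells. UMIs were summed per library, lineage and cycling status and expressed as CPM, and ratios carry exact conditional binomial intervals. Shares carry Clopper-Pearson intervals and differences Newcombe intervals. Log2 ratios use a pseudocount of 50 CPM. Doublets were scored with Scrublet in scanpy 1.11.5 and the top 0.8% per 1000 barcodes were taken as high, because the automatic threshold marked too few; high-scoring cells were kept, and left out only as an alternative. The named genes were the rule genes, list members with most UMIs among those past the fold, and the 10 highest and 5 lowest pooled ratios. This ranking was set for lineages with 10 cycling cells in each library and none had them, so it was applied to the pooled members, a choice made after the counts were seen. Genes named for their role alone, such as Csf1r, Mrc1, Eomes and Ccr2, are described without regard to the rule. Per-cell thinning used 2000 UMIs, drawn once per cell with a fixed seed. The method was tested on simulated data. One gene of the macrophage identity list was left out and is not reported here. Python 3.11.15, numpy 2.4.6, scipy 1.17.1 and pandas 2.3.3 were used.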

Additional observations from a re-analysis of the deposited data

How the results depend on the processing

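No paired analysis was possible because there was 1 library per sex and no test was run. Of 830 alternative log2 ratios of named genes 134 moved, and none of a gene past the fold changed sign. Of 69 ratios taken again without the cycling cell that held most UMIs of the gene, a setting chosen after seeing the data, 28 moved, and the male Icos ratio in T cells crossed 1, from 3.13 to 0.875. Within the female library, the T minus B and NK minus B intervals excluded 0 as reported and included it at 2000 UMIs per cell, as given above. The female minus male differences in share all had intervals that included 0 as reported. Of these, the C1q macrophage one went from -0.566 points to 0.151 when cells of several rules counted in each lineage. It went to 0.0221 at 2000 UMIs per cell and to 0 with a ceiling of 1.2% on mitochondrial UMIs. The Retnla difference went from -0.445 to 1.30 points at 2000 UMIs, and the B cell one from 0.0154 to -0.0319 with doubled lineage minimums and -0.00584 with at least 500 genes. With 2 rule UMIs the T cell difference was 2.55 points (0.219 to 4.59), an interval without 0. With 2 rule UMIs the cycling share was 2.44% in the female and 1.80% in the male library and the G2 and mitosis median 52.1 and 55.0 per 10000, and with 5 rule UMIs the female share was 1.23%. A 1.2% ceiling on this scale left 327 female and 359 male cells, of which 4 and 1 were cycling, since the median of all cells was 3.27% and 2.86%, and the scale meant in the methods is not settled. The shares were then 1.22% and 0.279%, the S phase median 54.3 in female cells, and the G2 and mitosis median 160 and, in 1 male cell, 41.4. The T cell difference was 10 points with an interval of -2.08 to 25.6, which included 0. At 2000 UMIs per cell the male share was 0.667% and its G2 and mitosis median 115. Of 18 alternative shares 12 moved by less than their interval, and of 65 female minus male differences 64.

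Counts of genes past the fold depended most on the pseudocount. With 10 CPM they were 270 higher and 120 lower in the pooled members, 230 and 869 in C1q macrophages, 75 and 322 in Retnla cells, 229 and 278 in T cells and 132 and 578 in NK cells. With 100 CPM they were 63 and 7, 35 and 11, 12 and 48, 73 and 19, and 39 and 8. With at least 50 UMIs per library, Retnla cells had 12 and 66 of 1297 genes tested, and NK cells 35 higher of 4189. With at least 5 UMIs Retnla cells had 55 higher of 7170 and NK cells 105 of 9790. As reported, 3101 and 7010 genes were tested, so these counts have different denominators. Without the member with the most UMIs in each library, C1q macrophages had 84 lower and Retnla cells 49 and 289; this setting was chosen after seeing the data. The cause of these shifts was not tested. Limits are 1 library per sex, few cycling cells per lineage, and members chosen by the genes described.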
